A study of Homo sapiens with 10 samples.

Results

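The genes described here are 40 protein-coding genes of the ATF4 and unfolded protein response pathways, listed by name for their known roles in these pathways. The list was made with earlier results of these data known. All 40 were found by symbol among the 19975 protein-coding genes listed in the expression tables of human NB4 cells, an acute promyelocytic leukemia cell line, and 39 were tested, with an adjusted p in each of the comparisons. The remaining member, NUPR1, a small stress-induced chromatin protein, was close to absent, with a mean normalised count of 1.05 in the control, 3.00 with shA1 and 0.550 with shB2, and had no fold change with MC2580.

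In the first experiment NB4 cells were transduced with the lentiviral vector pLKO.1 puro and harvested at 48 h. The vector was empty (EV) or carried 1 of 2 short hairpin RNAs against GSE1, shA1 or shB2. In the second experiment NB4 cells received DMSO or 2 µM MC2580, an inhibitor of the histone demethylase LSD1 (gene KDM1A), for 24 h. Each of the 5 groups had 2 libraries, 10 in all, of 1 cell line, and the EV carried no hairpin of its own. GSE1 is a subunit of LSD1-containing complexes, and the comparisons ask which transcripts moved when GSE1 was silenced and when LSD1 was inhibited.

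When unfolded proteins accumulate in the endoplasmic reticulum (ER), membrane sensors respond: PERK (gene EIF2AK3) phosphorylates the translation factor eIF2, which lowers general protein synthesis but favours translation of ATF4; IRE1 (gene ERN1) splices XBP1 mRNA; and ATF6 is cleaved to a transcription factor. ATF4 activates genes for amino acid supply and stress effectors, whereas ATF6 and spliced XBP1 activate ER chaperones and the degradation machinery. ATF4 can also be raised by other eIF2 kinases, and since ATF4, XBP1 and ATF6 are controlled by translation, splicing and cleavage, their transcript levels in total counts do not measure their activity.

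Values are given as mean normalised counts per group, which were rebuilt from the deposited mean over all libraries of an experiment (base mean) and the deposited fold changes, so that they carry no spread of their own. Values of single libraries were not analysed here, and whether libraries of the groups overlap is therefore not given. The error of each comparison is the standard error (SE) of its log2 fold change (log2 FC). It comes from a fit with 2 libraries per group, which in the knockdown was a joint fit of EV, shA1 and shB2. The adjusted p of a comparison is that of the deposited DESeq2 Wald test with Benjamini-Hochberg adjustment over all genes tested. A gene was called upregulated or downregulated when its adjusted p was under 0.01, and the stricter rule of the study's methods asks in addition for a log2 FC larger than 1 in size. Both hairpins were compared with the same EV libraries, so their fold changes are not independent of each other and are given side by side.

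GSE1 itself, the target, fell from a mean normalised count of 4102 with EV to 2407 with shA1 (log2 FC -0.77, SE 0.13, adjusted p = 2.47e-07) and 2380 with shB2 (log2 FC -0.79, SE 0.14, adjusted p = 7.66e-08), and was 4337 with DMSO and 4545 with MC2580. KDM1A was called in none of the comparisons. Of the 6 promyelocyte markers MPO, ELANE, PRTN3, AZU1, CTSG and CD33, ELANE was near 0 with a base mean of 1.10 and the other 5 had base means between 723 and 506765. MPO, PRTN3 and AZU1 were downregulated with both hairpins, CTSG was downregulated with shA1 and CD33 upregulated with shB2, and none was called with MC2580. Among markers of other blood cells the T cell gene CD3D had a base mean of 866 and the B cell gene CD79A of 121. CD3D was downregulated with shB2 (log2 FC -1.29, SE 0.16, adjusted p = 1.16e-13), and the T cell gene CD2 was called higher with shB2, from a mean normalised count of 0.615 with EV to 37.0 (adjusted p = 0.00246). In bulk RNA a lower level in every cell and a smaller share of cells expressing a gene cannot be told apart, and the part of these marker changes in the results below was not tested.

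Promoter sequences are shown first because the members are read below both by role and by short elements known to respond to ATF6, spliced XBP1 or ATF4. Windows from 250 bases before to 50 bases after the transcription start were taken from RefSeq (GRCh38.p14), and 35 of the 40 members matched; NUPR1, PSPH, PDIA3, DERL1 and DERL3 had no entry. Both strands were searched. The ER stress response element (ERSE) was searched as CCAAT and CCACG separated by 9 bases, ERSE-II as ATTGG and CCACG separated by 1 base, the C/EBP-ATF element bound by ATF4 as TGATG and AA separated by 1 base, and the unfolded protein response element as TGACGTGG or TGACGTGA. A gene was counted when any of its windows held the element. ERSE was found in 7 of the 35 members (HSPA5, HSP90B1, CALR, PDIA6, CANX, CRELD2 and XBP1), a share of 20.0%. Over all 27305 genes with a window it was found in 25 (0.0916%). ERSE-II was found in SDF2L1, HYOU1 and HERPUD1, and in 0.0696% of all genes with a window. The C/EBP-ATF element was found in ASNS, CHAC1 and HERPUD1 and in 4.46% of all genes with a window. The unfolded protein response element was found in HYOU1, where it overlaps an ERSE-II, and in 1.44% of all genes with a window. Of the wider set of pathway genes read below, 118 had a window. ERSE was found in 1 of them, ERSE-II in 0, the C/EBP-ATF element in 15 and the unfolded protein response element in 13. The members were listed for known roles in the responses these elements serve, so their shares are a description and not independent support. A match describes the letters of a window and is not evidence of a bound site. The search took exact letters and fixed gaps only. A gene without a match can therefore still hold a variant form, or an element outside its window.

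Stretches are shown only for the most upstream start listed for a gene, which holds for 5 of the 7 members with an ERSE. These 5 were called with a log2 FC over 0.5 in size, PDIA6 with a smaller one, and CANX was not called. PDIA6 and CANX carry the ERSE on the coding strand at a start further downstream and are not shown. Among those shown it lies on the coding strand of HSPA5 and XBP1, on the opposite strand of CALR and CRELD2, and once on each strand in HSP90B1. Each stretch below is read 5′ to 3′ on the coding strand of its gene, in lower case with the letters of the element in capitals (CGTGG and ATTGG are CCACG and CCAAT read from the opposite strand).
HSPA5, chr9:125241379-125241421, minus strand: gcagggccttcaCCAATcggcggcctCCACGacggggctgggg
HSP90B1, chr12:103930204-103930351, plus strand: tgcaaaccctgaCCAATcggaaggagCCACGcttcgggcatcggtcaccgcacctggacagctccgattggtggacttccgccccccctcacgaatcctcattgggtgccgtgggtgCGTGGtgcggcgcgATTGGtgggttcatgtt
CALR, chr19:12938372-12938414, plus strand: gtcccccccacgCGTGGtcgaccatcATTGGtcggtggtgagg
CRELD2, chr22:49918542-49918584, plus strand: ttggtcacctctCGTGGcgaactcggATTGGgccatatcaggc
XBP1, chr22:28800591-28800633, minus strand: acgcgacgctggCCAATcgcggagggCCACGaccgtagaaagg

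The ERSE-II promoters are shown because their 3 genes did not move together: SDF2L1 fell with both hairpins, HYOU1 was not called and HERPUD1 rose with shB2. The HERPUD1 stretch holds a C/EBP-ATF element upstream of its ERSE-II, and in HYOU1 the first capital run is the unfolded protein response element joined to an ERSE-II. The C/EBP-ATF elements of ASNS and CHAC1 are shown as the other ATF4-type elements among the members.
SDF2L1, chr22:21642102-21642136, plus strand: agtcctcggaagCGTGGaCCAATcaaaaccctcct
HYOU1, chr11:119057262-119057405, minus strand: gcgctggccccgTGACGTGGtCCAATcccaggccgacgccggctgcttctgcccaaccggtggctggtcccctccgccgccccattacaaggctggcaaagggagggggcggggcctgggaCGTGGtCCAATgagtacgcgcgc
HERPUD1, chr16:56931954-56932047, plus strand: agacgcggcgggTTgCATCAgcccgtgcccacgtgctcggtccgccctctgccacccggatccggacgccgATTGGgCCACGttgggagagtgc
ASNS, chr7:97872457-97872488, minus strand: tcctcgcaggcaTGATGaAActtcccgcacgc
CHAC1, chr15:40953250-40953281, plus strand: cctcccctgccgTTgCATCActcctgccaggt

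Upon GSE1 silencing the members did not move as 1 block. Of the 13 ER chaperones and folding enzymes 8 were downregulated with shA1 and 9 with shB2, of the 6 ATF4-linked stress effectors 2 and 3 were upregulated, the ER-associated degradation factors SEL1L and EDEM1 were upregulated with both hairpins, and the sensors ERN1, ATF6 and EIF2AK3 were not called. With shA1, 11 of the 39 tested members (28.2%) were downregulated and 5 (12.8%) upregulated at an adjusted p under 0.01, where the shares over all 16673 tested genes were 7.99% and 11.3%. With shB2, 14 members (35.9%) were downregulated and 7 (17.9%) upregulated, against 12.1% and 14.2% of 17913 genes. With the log2 FC limit of 1, shA1 left 3 upregulated members (DDIT4, DNAJB9 and SEL1L; all genes 4.32%) and 1 downregulated (XBP1; all genes 0.786%), and shB2 left 5 upregulated (DDIT4, SESN2, EDEM1, SEL1L and HERPUD1; all genes 5.58%) and 4 downregulated (TRIB3, CALR, CRELD2 and DERL3; all genes 2.91%).

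Without the fold limit the share of upregulated members thus lay near that of all genes, and the share of downregulated members above it. The members were listed with earlier results of these data known, so an excess over all genes is a description and not independent support. Since calls are more frequent among abundant transcripts, the same counts were made with a minimum base mean of 1000, which 29 members reached. Of these 29, 11 were downregulated with shA1 and 13 with shB2, where the shares over 6611 genes were 16.0% and 22.9%, and 4 and 6 were upregulated, where the shares were 17.2% and 23.3%. The median log2 FC of the 39 members was -0.19 with shA1 and 0.06 with shB2, beside medians over all genes of 0.00 in both, and the members ranged from -1.02 to 1.27 with shA1 and from -1.92 to 2.20 with shB2.

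**Figure D1:**
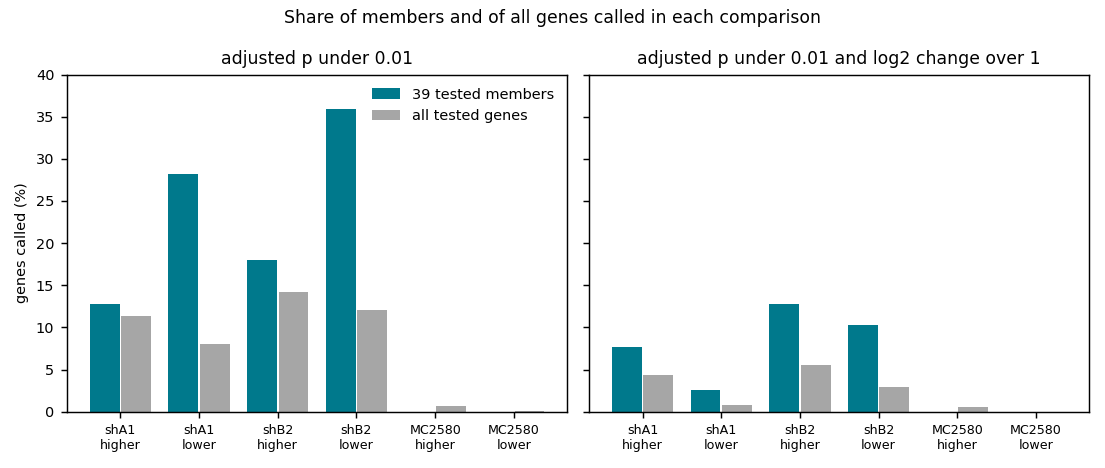
Bars give the percentage of the 39 tested members (teal) and of all tested genes (grey) called higher or lower in each comparison, at an adjusted p under 0.01 (left) and with a log2 fold change over 1 in size in addition (right). Without a fold limit 28.2% of members were lower with shA1 and 35.9% with shB2, above the grey bars of 7.99% and 12.1%, and no member was called with MC2580. The members were listed with earlier results of these data known.

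Over the 13 ER chaperones and folding enzymes the median log2 FC was -0.33 with shA1 and -0.57 with shB2. HSPA5, also called BiP, the abundant Hsp70 chaperone of the ER lumen that binds the sensors at rest, had a mean normalised count of 53484 with EV, 34225 with shA1 and 29816 with shB2. Its log2 FC was -0.64 (SE 0.09, adjusted p = 1.35e-10) and -0.84 (SE 0.09, adjusted p = 4.08e-18). HSP90B1, also called GRP94, the ER form of Hsp90, went from 84795 to 60879 (log2 FC -0.48, SE 0.09, adjusted p = 1.31e-06) and 54931 (log2 FC -0.63, SE 0.09, adjusted p = 3.5e-11). Both chaperones were thus lower with either hairpin, and their fold changes did not pass a log2 size of 1.

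CALR, the calcium-binding lectin chaperone calreticulin, was downregulated with both hairpins and passed a log2 size of 1 with shB2. Its mean normalised count was 219988 with EV, 139452 with shA1 (log2 FC -0.66, SE 0.09, adjusted p = 9.14e-11) and 101595 with shB2 (log2 FC -1.11, SE 0.09, adjusted p = 1.98e-30). CANX, calnexin, the membrane-bound lectin that works with calreticulin in the same folding cycle, stood at 13780, 13119 and 14337 and was not called (log2 FC -0.07 and 0.06, each with SE 0.10). The members of this lectin pair therefore differed in their calls. Both carry an ERSE in a promoter window, that of CANX at a start further downstream than its first.

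CRELD2, SDF2L1 and MANF, factors of the ER lumen that are induced by ER stress, were all downregulated with both hairpins. CRELD2, an ER-resident protein with EGF-like domains, went from 2890 with EV to 1680 with shA1 (log2 FC -0.78, SE 0.16, adjusted p = 7.71e-06) and 1286 with shB2 (log2 FC -1.17, SE 0.16, adjusted p = 2.18e-12). SDF2L1, a partner of ER Hsp40 proteins, went from 1496 to 832 (log2 FC -0.85, SE 0.17, adjusted p = 1.35e-05) and 900.4 (log2 FC -0.73, SE 0.17, adjusted p = 0.000144). MANF, a secreted factor that also acts inside the ER with BiP, went from 5604 to 3482 (log2 FC -0.69, SE 0.12, adjusted p = 7.24e-07) and 3237 (log2 FC -0.79, SE 0.12, adjusted p = 3.58e-09). The window of MANF held no exact match to either ERSE form, which does not show that the element is absent.

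Among the protein disulfide isomerases, PDIA3 (log2 FC -0.30 and -0.47 with shA1 and shB2) and PDIA6 (log2 FC -0.33 and -0.28) were downregulated with both hairpins, each with SE 0.09. PDIA4 stood at 25477 with EV, 22607 with shA1 (log2 FC -0.17, SE 0.09, adjusted p = 0.166) and 17172 with shB2 (log2 FC -0.57, SE 0.09, adjusted p = 9.82e-09). HYOU1, the nucleotide exchange factor of BiP, and DNAJC3, an Hsp40 co-chaperone that inhibits PERK, were not called with either hairpin, and their log2 FC lay between -0.23 and 0.15.

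DNAJB9, also called ERdj4, an Hsp40 co-chaperone that brings BiP to IRE1 and is a classical target of spliced XBP1, was the exception among the chaperones. Its mean normalised count was 195 with EV, 413 with shA1 and 171 with shB2. It was upregulated with shA1 (log2 FC 1.09, SE 0.25, adjusted p = 0.000165), while with shB2 the log2 FC was -0.19 (SE 0.26, adjusted p = 0.657).

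**Figure D2:**
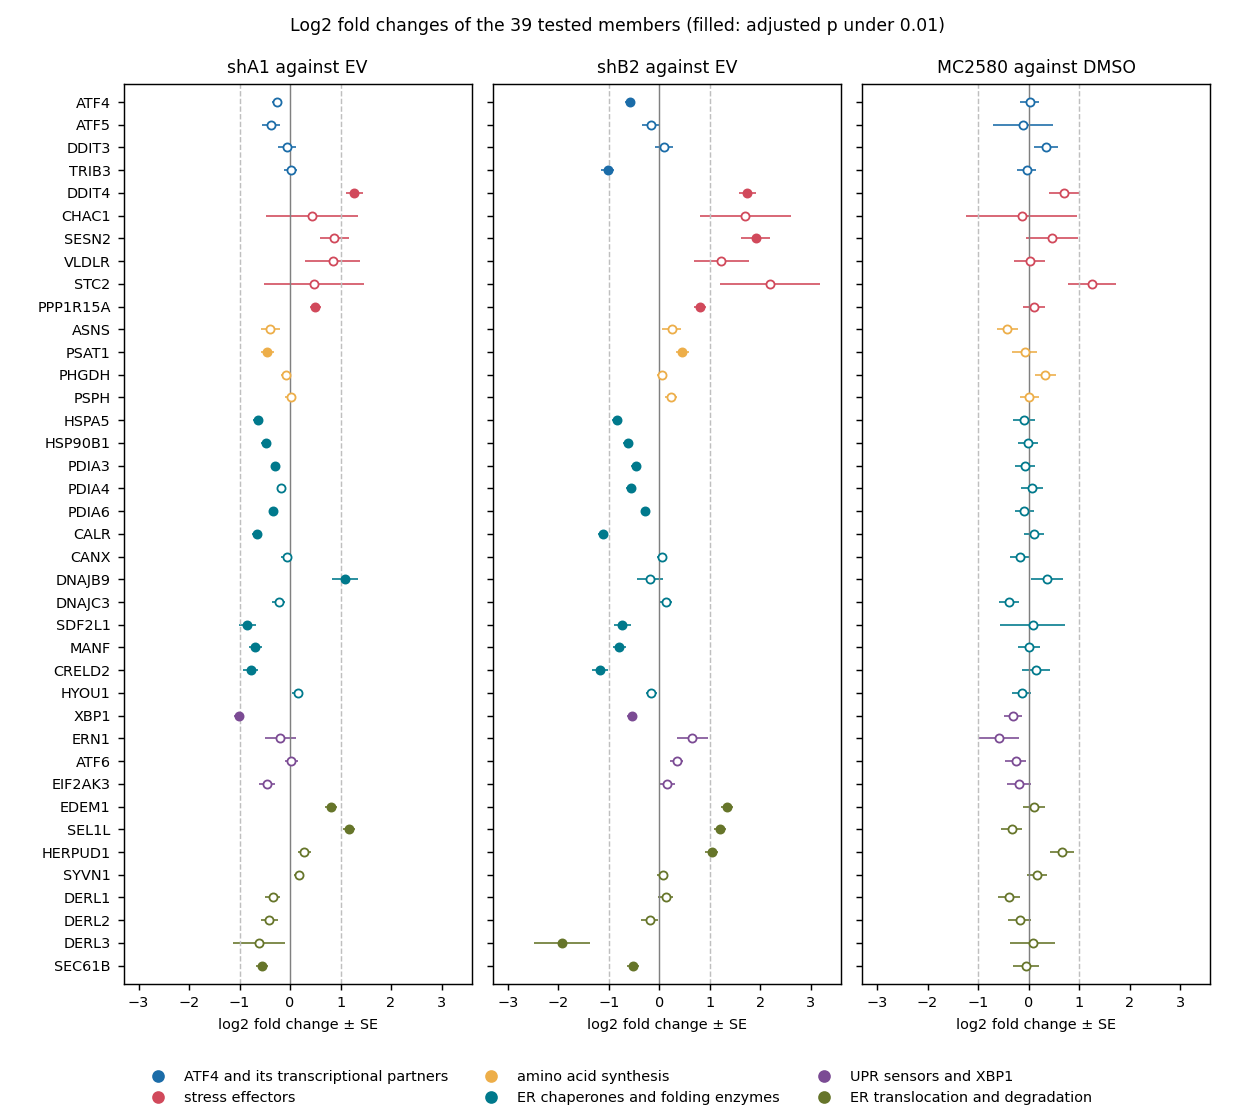
Each point is the log2 fold change of 1 member and each bar its standard error, for shA1 and shB2 against EV and MC2580 against DMSO, with members ordered and coloured by role, filled points at an adjusted p under 0.01 and dashed lines at a log2 fold change of 1 in either direction. Most chaperones lie left of 0 with both hairpins, DDIT4, SEL1L and EDEM1 lie right of it, and no point is filled for MC2580.

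Of the sensors and XBP1, XBP1 was the single member called. Its total transcript, spliced and unspliced forms together, had a mean normalised count of 8387 with EV, 4142 with shA1 and 5792 with shB2. The log2 FC was -1.02 (SE 0.10, adjusted p = 2.23e-21) with shA1 and -0.53 (SE 0.10, adjusted p = 1.41e-06) with shB2. ERN1, ATF6 and EIF2AK3 gave log2 FC between -0.46 and 0.03 with shA1 and between 0.15 and 0.66 with shB2, with no call. The smallest adjusted p among them was 0.0127, for EIF2AK3 with shA1.

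ATF4 transcript was lower with shB2 and its direct partners gave 1 further call. ATF4 (chr22:39519695-39522683, GRCh38) had a mean normalised count of 26574 with EV, 22108 with shA1 (log2 FC -0.27, SE 0.09, adjusted p = 0.0133) and 17710 with shB2 (log2 FC -0.59, SE 0.09, adjusted p = 6.62e-10). TRIB3 (chr20:362835-397559), a pseudokinase that is induced by ATF4 and DDIT3 and restrains them in turn, stood at 3331 with EV, 3356 with shA1 and 1642 with shB2. It was downregulated with shB2 (log2 FC -1.02, SE 0.13, adjusted p = 1.33e-14) and its log2 FC with shA1 was 0.01 (SE 0.12, adjusted p = 0.972). DDIT3, also called CHOP, the transcription factor of prolonged ER stress, stood at 983, 945 and 1052 and was not called (log2 FC -0.06 and 0.10, each with SE 0.17). ATF5, a relative of ATF4 under the same translational control, was not called either (log2 FC -0.37 and -0.16, each with SE 0.18).

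All 6 stress effectors had a log2 FC above 0 with both hairpins, with medians of 0.67 with shA1 and 1.72 with shB2, but only some passed the test. DDIT4 (chr10:72273919-72276036), also called REDD1, an inhibitor of mTORC1 signalling that responds to ATF4, to hypoxia and to glucocorticoids, had a mean normalised count of 1177 with EV, 2838 with shA1 and 3938 with shB2. It was upregulated with shA1 (log2 FC 1.27, SE 0.17, adjusted p = 1.61e-12) and with shB2 (log2 FC 1.74, SE 0.17, adjusted p = 1.37e-23).

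SESN2, sestrin 2, a stress-inducible leucine sensor that also restrains mTORC1 and is a target of p53 as well as of ATF4, stood at 107 with EV, 197 with shA1 (log2 FC 0.88, SE 0.28, adjusted p = 0.0103) and 402 with shB2 (log2 FC 1.91, SE 0.28, adjusted p = 1.94e-10). PPP1R15A, also called GADD34, the phosphatase subunit that reverses eIF2 phosphorylation, stood at 2461 with EV, 3482 with shA1 (log2 FC 0.50, SE 0.12, adjusted p = 0.000151) and 4310 with shB2 (log2 FC 0.81, SE 0.12, adjusted p = 5.09e-11). These 2 effectors were higher in shB2 than in shA1 by their group means, a difference that did not pass the test described below. That test sets the SE at its upper limit, and with a smaller SE rebuilt for the shared EV the difference of SESN2 was called.

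CHAC1 (a glutathione-degrading enzyme), VLDLR (a lipoprotein receptor) and STC2 (a secreted glycoprotein) were not called. STC2 had the highest log2 FC of any member with shB2, 2.20, but with SE 0.99 (adjusted p = 0.0733), at mean normalised counts of 70.8 with EV and 324 with shB2. CHAC1, often used as a reporter of ATF4 activity, stood at 9.82 with EV, 13.3 with shA1 and 32.0 with shB2, with SE of 0.92 and 0.90 for log2 FC of 0.43 and 1.71. For these transcripts the SE was too large for changes of this size to be told from 0.

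The amino acid synthesis members PSAT1, PHGDH and PSPH, the enzymes of the serine pathway, and ASNS, asparagine synthetase, gave 1 call per hairpin and in opposite directions. PSAT1 had a mean normalised count of 3307 with EV, 2418 with shA1 (log2 FC -0.45, SE 0.13, adjusted p = 0.00328) and 4542 with shB2 (log2 FC 0.46, SE 0.13, adjusted p = 0.00194). ASNS stood at 1839, 1399 and 2186 (log2 FC -0.39 and 0.25, each with SE 0.19) without a call, and PHGDH and PSPH gave log2 FC between -0.08 and 0.23.

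Among the 8 members of ER translocation and degradation, SEL1L and EDEM1 were upregulated with both hairpins. SEL1L (chr14:81471547-81533853), the adaptor of the HRD1 ubiquitin ligase complex that exports misfolded proteins from the ER, had a mean normalised count of 1314 with EV, 2936 with shA1 (log2 FC 1.16, SE 0.12, adjusted p = 2.15e-20) and 3031 with shB2 (log2 FC 1.21, SE 0.12, adjusted p = 3.69e-22). EDEM1 (chr3:5187646-5219958), which hands misfolded glycoproteins to this complex, went from 1921 to 3357 (log2 FC 0.81, SE 0.12, adjusted p = 2.22e-10) and 4890 (log2 FC 1.35, SE 0.12, adjusted p = 1.05e-28). SYVN1, the HRD1 ligase itself, was not called (log2 FC 0.18 and 0.06, each with SE 0.10).

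HERPUD1, a membrane protein that assembles the HRD1 complex, stood at 1514 with EV, 1840 with shA1 (log2 FC 0.28, SE 0.13, adjusted p = 0.0908) and 3115 with shB2 (log2 FC 1.04, SE 0.13, adjusted p = 1.36e-14). SEC61B, a subunit of the channel through which proteins enter the ER, was downregulated, from 2962 to 2018 (log2 FC -0.55, SE 0.13, adjusted p = 0.00011) and 2061 (log2 FC -0.52, SE 0.13, adjusted p = 0.000198). DERL3, a derlin of the degradation machinery, stood at 78.0 with EV, 50.9 with shA1 and 20.6 with shB2, with a call for shB2 (log2 FC -1.92, SE 0.56, adjusted p = 0.00247), whereas DERL1 and DERL2 were not called. Within this role calls were therefore made in both directions.

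**Figure D3:**
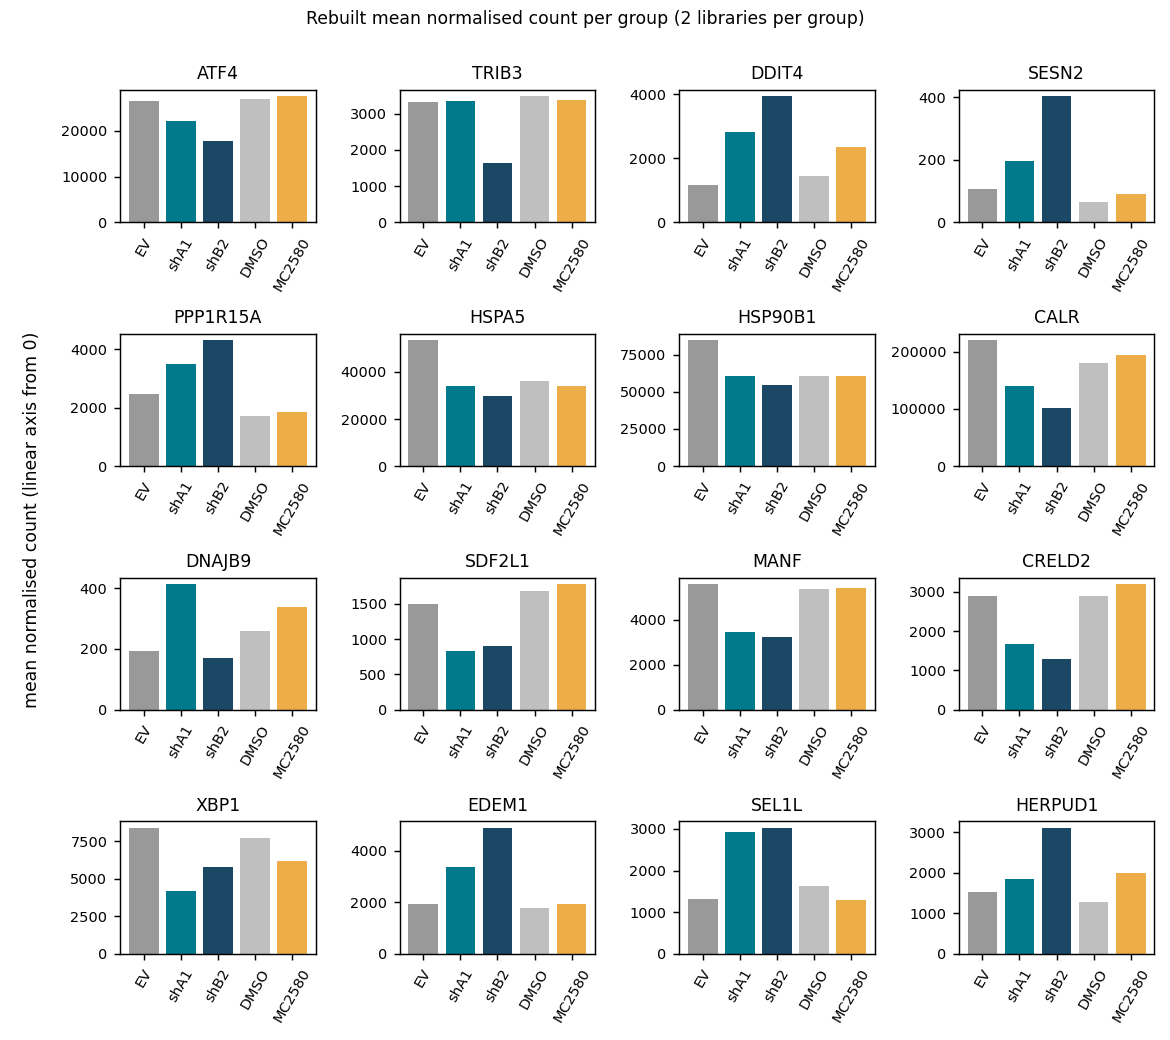
Bars give the rebuilt mean normalised count of 16 members in EV, shA1, shB2, DMSO and MC2580, on linear axes from 0 that differ between panels; the bars carry no error because they are rebuilt group means, and the knockdown and inhibitor experiments were normalised separately. HSPA5, CALR and XBP1 are below EV with both hairpins, SEL1L and DDIT4 are above it, and TRIB3 and DNAJB9 differ between the hairpins.

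Read by promoter element, 7 of the 10 members with an ERSE or ERSE-II were downregulated with each hairpin (HSPA5, HSP90B1, PDIA6, CALR, SDF2L1, CRELD2 and XBP1). None of the 10 was upregulated with shA1 and 1, HERPUD1, with shB2, and the median log2 FC of the 10 was -0.56 and -0.58. The other 25 members with a window held no exact match to either form. Of these, 3 were downregulated and 5 upregulated with shA1 (median log2 FC -0.06). With shB2, 5 were downregulated and 6 upregulated (median log2 FC 0.15). The 3 members with a C/EBP-ATF element gave 1 call, HERPUD1 with shB2. The 10 promoters overlap the chaperone role, to which 8 of them belong, so element and role cannot be told apart by these counts, and no test was made of them.

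The difference between hairpins was tested directly for each gene as the log2 FC with shB2 minus that with shA1, with an SE set at its upper limit, since the EV libraries enter both fold changes and the true error is smaller. At an adjusted p under 0.01 (Wald test, Benjamini-Hochberg over 16673 genes), 2 members were higher with shB2 than with shA1 (all genes 2.82%) and 3 were lower (all genes 4.04%). With a difference larger than 1 in size, 0 members were higher (all genes 0.828%) and 2 were lower (all genes 2.2%); at an unadjusted p under 0.05 the count in both directions was 16 of 39, where 19.6% of all genes passed.

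TRIB3 was lower with shB2 by a log2 difference of -1.03 (SE 0.18, 95% interval -1.38 to -0.69, adjusted p = 3.32e-07) and DNAJB9 by -1.28 (SE 0.36, 95% interval -1.99 to -0.56, adjusted p = 0.00718). CALR was lower with shB2 by -0.46 (SE 0.13, adjusted p = 0.00857). PSAT1 was higher with shB2 by 0.91 (SE 0.18, adjusted p = 2.76e-05) and HERPUD1 by 0.76 (SE 0.18, adjusted p = 0.000705). By this test the hairpins thus differed in single members of 4 of the 6 roles, and not in 1 direction.

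For the remaining 34 tested members the difference did not pass, which does not show that the hairpins acted alike. An SE rebuilt for the shared EV was smaller, at 0.10 in place of 0.14 for XBP1 and 0.12 in place of 0.17 for EDEM1. Calls with this smaller SE were counted only with the log2 limit of 1, so more members may differ than are called here. XBP1 (difference 0.48, 95% interval 0.20 to 0.77, adjusted p = 0.011) and EDEM1 (difference 0.54, 95% interval 0.22 to 0.87, adjusted p = 0.0142) lay closest to the threshold. For SEL1L the interval ran from -0.28 to 0.38 and for HSPA5 from -0.46 to 0.06. For SESN2 it ran from 0.25 to 1.81 (adjusted p = 0.0813) and for ATF4 from -0.57 to -0.07 (adjusted p = 0.0855). With the rebuilt SE the difference of SESN2 was called.

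**Figure D4:**
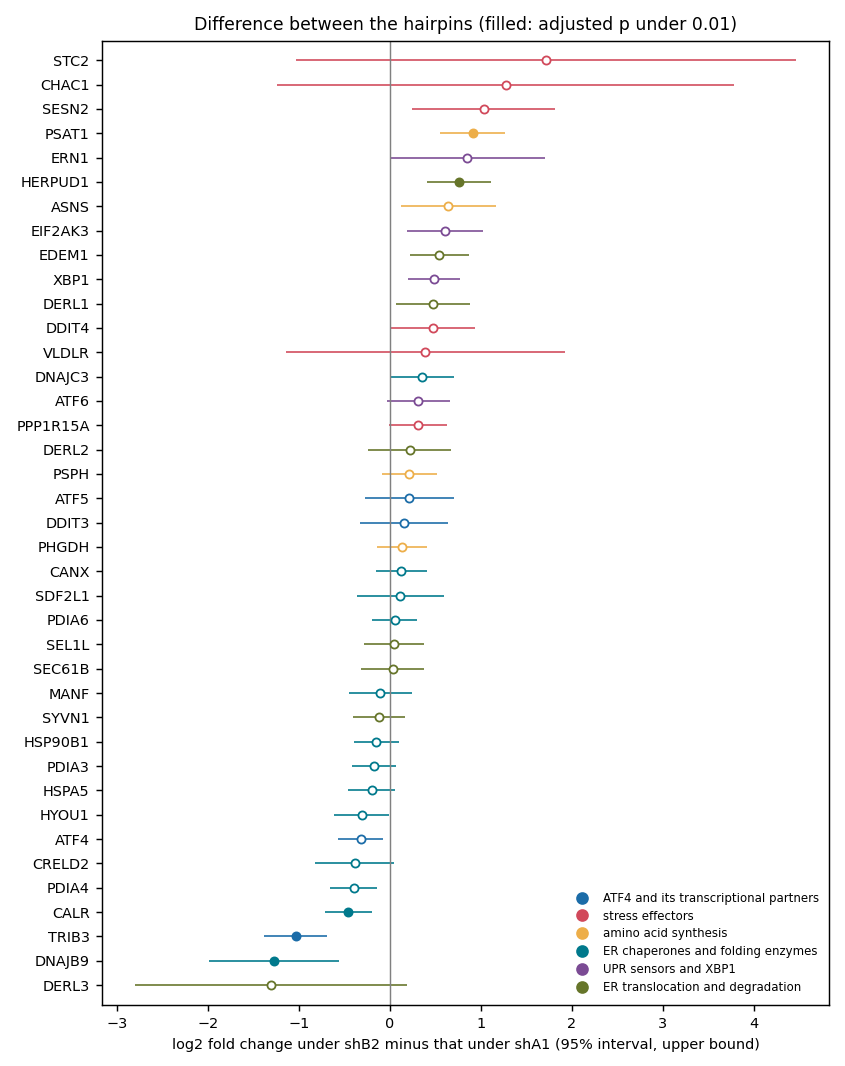
Points give, for each of the 39 tested members, the log2 fold change with shB2 minus that with shA1, and bars its 95% interval from the upper bound of the standard error, ordered by size and coloured by role, with filled points at an adjusted p under 0.01. TRIB3, DNAJB9 and CALR are filled on the left, PSAT1 and HERPUD1 on the right, and the widest intervals belong to STC2 and CHAC1.

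MC2580 called no member in either direction by the deposited DESeq2 test. Over all 18554 tested genes the calls were also few: 0.733% were upregulated and 0.0269% downregulated at an adjusted p under 0.01, and 0.587% and 0.0162% with the log2 FC limit. At an unadjusted p under 0.05, 4 of the 39 members passed, where 5.77% of all genes did. The median log2 FC of the members was -0.01, in a range from -0.59 to 1.25.

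HERPUD1 had the smallest adjusted p of the members with MC2580, at mean normalised counts of 1266 with DMSO and 1995 with MC2580 (log2 FC 0.66, SE 0.24, adjusted p = 0.279). STC2 had the highest log2 FC of the members, at 64.4 and 153 (log2 FC 1.25, SE 0.48, adjusted p = 0.356). DDIT4 stood at 1443 and 2353 (log2 FC 0.71, SE 0.29, adjusted p = 0.528). The chaperones had a median log2 FC of -0.01, with HSPA5 at 36030 and 33862 (log2 FC -0.09, SE 0.21), CALR at 180955 and 194370 (log2 FC 0.10, SE 0.19) and HSP90B1 at 61008 and 60544 (log2 FC -0.01, SE 0.20). SEL1L had a log2 FC of -0.33 (SE 0.20).

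These errors were larger than in the knockdown, with a median SE over members of 0.22 beside 0.13 with either hairpin, so that a change of the size of HSP90B1 with shA1 would have been harder to detect. The 95% interval of the log2 FC with MC2580 nevertheless lay within 1 in either direction for 31 of the 39 members. Whether the response of a member differed between MC2580 and a hairpin was not tested, since the experiments differ in time, in control and in normalisation.

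A wider set of 137 genes of the same pathways that are no members was read in the same way, of which 134 had an adjusted p with both hairpins. With shA1, 11 (8.21%) were upregulated and 29 (21.6%) downregulated, beside 11.3% and 7.99% of all genes. With shB2 the counts were 27 (20.1%) and 23 (17.2%), beside 14.2% and 12.1%. With MC2580 they were 1 and 0 of 133, beside 0.733% and 0.0269%. Of the 28 other ATF4 targets tested, 1 was upregulated and 10 downregulated with shA1, and 7 and 4 with shB2. SLC7A5, the large neutral amino acid transporter, was downregulated with shA1 (log2 FC -1.31, SE 0.10, adjusted p = 6.72e-40), with a log2 FC of -0.22 with shB2 (SE 0.10, adjusted p = 0.056). CEBPD, a C/EBP transcription factor, was downregulated with shA1 (log2 FC -0.66, SE 0.15, adjusted p = 0.00011) and with shB2 (log2 FC -2.20, SE 0.15, adjusted p = 3.16e-44). Differences between the hairpins larger than 1 were called in this list for SLC7A5 (1.08) and WARS (1.10), a tryptophanyl-tRNA synthetase, which were higher with shB2, and for CEBPD (-1.55).

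Of the 18 eIF2 kinases and regulators, 3 (16.7%) were upregulated and 4 (22.2%) downregulated with shA1, and 4 (22.2%) and 5 (27.8%) with shB2. The shares over all genes were 11.3% and 7.99% with shA1, and 14.2% and 12.1% with shB2. EIF2AK2, also called PKR, the eIF2 kinase that senses double-stranded RNA and is induced by interferon, went from 3060 with EV to 9438 with shA1 (log2 FC 1.63, SE 0.14, adjusted p = 1.5e-27) and 5589 with shB2 (log2 FC 0.87, SE 0.14, adjusted p = 1.69e-08). NFE2L2, the oxidative stress transcription factor NRF2, was higher with shA1 (log2 FC 0.57) and lower with shB2 (log2 FC -0.69), a difference of -1.26 (SE 0.16, adjusted p = 1.97e-13).

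Of 30 genes of ER translocation and glycosylation, 1 (3.33%) was upregulated and 11 (36.7%) downregulated with shA1, and 3 (10.0%) and 6 (20.0%) with shB2. For this list and those below, the shares over all genes were 11.3% and 7.99% with shA1. With shB2 they were 14.2% and 12.1%. GFPT1, the first enzyme of the hexosamine pathway and a target of spliced XBP1, was upregulated with both hairpins (log2 FC 1.19 and 1.96, each with SE 0.11), whereas SEC11C, a signal peptidase subunit, was downregulated with both (log2 FC -0.89 and -1.20, each with SE 0.15). Of 21 other ER folding factors, 1 was upregulated and 1 downregulated with shA1, and 3 and 3 with shB2. Of 21 other genes of ER-associated degradation, 2 and 3 were called with shA1 and 6 and 5 with shB2, including EDEM3 (log2 FC 0.47 with shA1 and -1.17 with shB2, difference -1.64, SE 0.20) and the ubiquitin-conjugating enzyme UBE2J1 (log2 FC -1.09 with shB2, SE 0.11).

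Of the 16 tested genes of sensor processing and stress-linked death, 3 were upregulated with shA1, 4 with shB2 and 1 with MC2580, and none was downregulated. The upregulated shares were 18.8%, 25.0% and 6.25%, where 11.3%, 14.2% and 0.733% of all genes were upregulated. Downregulated were 7.99%, 12.1% and 0.0269% of all genes. TNFRSF10B, the death receptor DR5, a target of DDIT3 and of p53, was called in all 3 comparisons. Its mean normalised count was 1017 with EV, 4531 with shA1 (log2 FC 2.16, SE 0.15, adjusted p = 1.47e-45) and 3274 with shB2 (log2 FC 1.69, SE 0.15, adjusted p = 3.38e-28). With MC2580 it went from 916 to 2529 (log2 FC 1.47, SE 0.26, adjusted p = 1.29e-05), the single call for MC2580 among the members and the wider lists.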

How the data were processed

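mRNA-seq libraries (TruSeq) of NB4 cells were mapped to hg38 with STAR 2.7 and quantified with RSEM, and the authors compared groups in DESeq2 with 2 biological replicates each, per the labels and the study's methods. The tables hold no value per library. Their deposited columns are the signal values (base means, counts divided by size factors and averaged over an experiment), the log2 fold changes with standard errors, the score values (Wald statistics), and the p-value columns with Benjamini-Hochberg adjusted values. These are the authors' own comparisons, and they were read here for the pathway's genes because no other values were given. Base means summed to 40543130 in the knockdown and 41201112 in the inhibitor experiment. Depth per library is unknown, so no counting interval was computed. The p-values rest on a spread between replicate libraries that in the knockdown was shared by EV, shA1 and shB2. The spreads rebuilt from the standard error of either hairpin differed by a median of 0.47%. The p-values thus do not measure the spread of the compared groups alone.

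Column 3-1 was taken as shA1 and 4-2 as shB2, since 1997 of 1997 genes in the available part of a supplementary gene table had the same fold changes. From these columns Python 3.11.15 (numpy 2.4.6, pandas 2.3.3, scipy 1.17.1, matplotlib 3.10.9) computed group means, counts of calls and the difference between hairpins, with a standard error set at the root of the summed squares. On simulated data for the difference between hairpins, 163 of 200 genes changed by 1.5 on the log2 scale were recovered among 12463, with 0 false calls. The simulation took the spread of each gene between libraries as known and gave EV and shA1 the same mean. It therefore checks the arithmetic and does not give the rate of false calls in these data. The kit does not mark strand, so reads of overlapping antisense genes cannot be told apart. Gene positions are those of GENCODE release 44. The members and lists were chosen with earlier results of these data known. Levels, errors and adjusted p were given for members past an adjusted p of 0.01 and a log2 change of 0.5 in any comparison, with other members by name, count or range, and in some cases with values chosen after these were seen; of the wider lists, genes past the threshold of the methods were named. Alternatives were the thresholds, the genes adjusted over, the centring and the standard error of the difference. Count tests were not run, as they need values per library, and protein sequences were not used here.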

Additional observations from a re-analysis of the deposited data

Results flagged for a closer look

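For 2 members the log2 FC differed between the hairpins by more than 1 in size and the difference was called. TRIB3 differed by -1.03, with a log2 FC of 0.01 with shA1 and -1.02 with shB2. DNAJB9 differed by -1.28, with a log2 FC of 1.09 with shA1 and -0.19 with shB2. Both differences were tested with the Wald test on the deposited fold changes, with adjusted p of 3.32e-07 and 0.00718 over all genes. The differences of SESN2, CHAC1, STC2 and DERL3 were also larger than 1 in size but were not called at the upper limit of the SE. GSE1 transcript fell by 0.77 with shA1 and by 0.79 with shB2 on the log2 scale (SE 0.13 and 0.14). These values are RNA and do not give the loss of protein. For GSE1 protein at a later time the study reports stronger depletion with shB2 than with shA1. Since the EV carried no hairpin, an effect of GSE1 loss and an effect of 1 hairpin cannot be told apart here.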

How the results depend on the processing

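With no limit on the fold change, the calls rose from 4 to 16 with shA1, from 9 to 21 with shB2 and from 2 to 5 for the difference between hairpins, and with a log2 change over 0.5 to 12, 18 and 4, where the shares over all genes were 14.2%, 20.6% and 6.70%. Adjustment over every gene with a p-value left 1 call for the difference, TRIB3, since DNAJB9 had an adjusted p of 0.0144. With MC2580 the count stayed at 0 under each alternative run. With a base mean of at least 50, shB2 kept 8 calls and DERL3 was no longer tested; the rebuilt standard error gave 3 calls for the difference, with SESN2 added. Over all genes the calls with no fold limit were 3221 in place of 851 with shA1, 4707 in place of 1520 with shB2 and 1143 in place of 505 for the difference, and the rebuilt standard error gave 758. Of 241 alternative values of the named members, 202 kept their direction and side of the threshold, 1 lost its call, 38 gained one and 0 reversed. This tally was largely fixed in advance and is no support for the calls. The fold change was the same in every alternative but centring, and the 38 gains came from lowering the fold limit. Centring moved fold changes by at most 0.03. No paired analysis was possible because the tables used here hold no value per library, and leaving out a replicate and the count tests with edgeR or DESeq2 were not run for the same reason. With 2 libraries per group, the errors of CHAC1, STC2, VLDLR and DERL3 were all above 0.5 on the log2 scale with both hairpins.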
